A study of Homo sapiens with 9 samples.

Results

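The unexposed cells described here were NT2 cells, a human embryonal carcinoma line, harvested after 96 h of retinoic acid without an organophosphorus compound. Their RNA was measured on the 3 control arrays, A, B and C, of a series of 9 arrays, and these 3 arrays were taken by their label. The other 6 arrays came from cells given 1 µM paraoxon or 5 µM mipafox for the same 4 days, 3 arrays each. All 3 groups, the controls included, were kept in DMEM with 10 µM retinoic acid and 10% foetal bovine serum, so "unexposed" means without organophosphate and not untreated. The cells are 1 tumour line, and the compounds were dissolved in the culture medium itself. The study asked whether the 2 compounds alter the first step of neural commitment, and the controls define the state from which any change would be read. The labels call the 3 arrays biological replicates and the study's methods call its replicates technical, so the SDs below may measure technical spread.

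NT2 cells descend from a teratocarcinoma and share with embryonic stem cells the transcription factors that keep a cell pluripotent. Retinoic acid, a vitamin A derivative, is carried by binding proteins inside the cell and activates nuclear receptors that sit on DNA as heterodimers of a RAR and an RXR. Among the first targets are enzymes that destroy retinoic acid, the receptor RARB itself and HOX genes at the 3′ ends of their clusters, and prolonged treatment turns these cells towards neurons. RNA of a mixed culture is measured in bulk, where fewer cells of a type and less RNA per cell cannot be told apart.

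Signal here is the log2 of the array's processed brightness minus the array's 75th percentile, so that 0 marks a probe brighter than 75% of spots and 1 unit is a 2-fold difference in brightness. The percentile of a probe is its rank among 42402 probes by the mean of the 3 arrays. Brightness depends on the probe as well as on RNA, so the ranks are of signal and no gene's RNA amount is set against another's. A probe counted as well above background on an array where the scanner software flagged over 0.5 of its spots, a lenient limit, so the percentile is given beside it. Of 42405 probes, 28573 were well above background on all 3 arrays, which is 67.4%, 10870 on none, and no spot was saturated. For 19763 gene names known to RefSeq, each by its brightest probe, the share on all 3 arrays was 79.1%, and 16.8% of them lay in the top 10% of probes. These are the shares against which the gene lists below are read. Between arrays the values of the 28573 probes correlated with r of 0.992 for A and B, 0.989 for A and C, and 0.997 for B and C, across probes, which share their base composition and are not replicates.

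Read across 28 lists that held 720 gene symbols, of which 717 were found on the array, 602 listed genes were well above background on all 3 arrays and 96 on none. Genes for making nucleotides, sterols and energy, for dividing and for responding to retinoic acid lay at the bright end, with list medians between the 85.6th and the 94.3rd percentile. Lists of trophoblast, muscle and mesoderm, liver, blood and neural crest genes lay at the dim end, with medians between the 36.5th and the 41.8th percentile. All gene names known to RefSeq had a median at the 68.1st percentile. The plot of all lists shows how wide each one was, since nearly all lists held both bright and dim genes.

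The 5 genes taken as markers of these cells were all well above background on the 3 arrays and all in the top 10% of probes. POU5F1, also called OCT4, is the transcription factor at the centre of pluripotency, and its probe at chr6:31132178-31132237 (hg19) read 5.53, 5.51 and 5.43 on A, B and C, or 5.49 ± 0.05 (SD, n = 3), at the 98.8th percentile. A second POU5F1 probe read 2.66 ± 0.06 (SD, n = 3), at the 94.0th percentile. POU5F1 has near-identical pseudogene copies, and what share of the signal they could give was not tested. SOX2, the partner of POU5F1 that also marks neural progenitors, read 4.34, 4.53 and 4.36, at the 97.7th percentile. LIN28B blocks the maturation of the let-7 microRNAs and read 3.34, 3.54 and 3.45, at the 96.1st percentile. DNMT3B, which sets new DNA methylation in the early embryo, read 2.73, 2.68 and 2.65, at the 94.1st percentile. NES, the intermediate filament protein of neural progenitors, read 4.48 on A, 4.00 on B and 4.03 on C, at the 97.4th percentile, and was the marker with the widest spread, 0.27 (SD, n = 3). Pluripotency and progenitor markers were bright on the same arrays. The 5 were chosen with earlier results of these data known, so their brightness is a description and no test of the cells' identity.

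Of 36 genes tied to pluripotency and embryonal carcinoma, 34 were well above background on all 3 arrays (94.4%) and 10 lay in the top 10%. PODXL, the surface sialomucin that carries stem cell epitopes, read 6.53, 6.54 and 6.59 on A, B and C and ranked at the 99.4th percentile. SALL4, a zinc finger factor of stem cells, read 4.04, 4.41 and 4.24, at the 97.5th percentile. NANOG, the pluripotency factor named here for its role, read -0.19, 0.27 and 0.14, at the 80.4th percentile. The range went down to ZFP42 (REX1), a marker of undifferentiated cells, at -4.64 ± 0.26 (SD, n = 3), PRDM14 at -5.79 ± 0.26 (SD, n = 3) and OTX2 at -6.67 ± 0.35 (SD, n = 3), all below the 50th percentile though flagged above background on each array. FOXD3 was above background on 2 arrays only. DPPA3, a germ line factor, was above background on none, and its values of -7.92, -8.71 and -9.11 have no order. ALPL, the alkaline phosphatase of stem cells, was the member whose arrays disagreed: 1.18 on A against 0.07 on B and -0.12 on C.

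Genes of the retinoic acid pathway were bright as a list: 32 of 34 were well above background on all 3 arrays (94.1%) and 15 lay in the top 10% (44.1%). CRABP2, which carries retinoic acid to its receptors, read 7.48, 7.03 and 7.07 on A, B and C, at the 99.7th percentile, on the brighter of 2 probes, and the other read -2.47 ± 0.15 (SD, n = 3). CYP26A1, the cytochrome P450 that breaks retinoic acid down, read 5.86, 6.09 and 6.00 at chr10:94837013-94837072 (hg19), at the 99.1st percentile. CRABP1, the other cellular retinoic acid-binding protein, read 5.31, 5.04 and 4.87. The 3 arrays of each of these genes lay within 0.5 of each other, far less than their distance from the 75th percentile. No array of cells without retinoic acid is in the series, so these levels are those of treated cells and show no induction.

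The promoters of 2 of these genes hold letters of the kind that retinoic acid receptors read. A RAR and RXR pair reads 2 copies of a 6-base half-site, AGGTCA or a near form of it, in direct repeat with 5 bases between. The half-site was searched as AGGTCA itself, as the form AGTTCA, as the form GGTTCA and as the form GGGTCA, with a gap of 5 or 2 bases, on both strands, from 250 bases before to 50 after each transcription start. The gap of 5 occurred in 31 of 35116 RefSeq promoters (0.0883%) and the gap of 2 in 14 (0.0399%), and the pathway's 50 promoters, of 27 genes, held 2 and 0. Both matches consist of the forms AGTTCA and GGTTCA, which the search was given. The counts depend on that choice of forms and are no test of enrichment in the pathway. The 27 promoters of 20 HOX genes held neither. The 250 bases before the start (RefSeq, GRCh38.p14, both genes on the + strand) are given below with the half-sites in capitals, RARB at chr3:25428013-25428262 and CYP26A1 at chr10:93073643-93073892. In RARB the repeat starts 53 bases before the transcription start, and in CYP26A1 it starts 90 bases before it and lies on the opposite strand, so that its half-sites read TGAACT here.
RARB: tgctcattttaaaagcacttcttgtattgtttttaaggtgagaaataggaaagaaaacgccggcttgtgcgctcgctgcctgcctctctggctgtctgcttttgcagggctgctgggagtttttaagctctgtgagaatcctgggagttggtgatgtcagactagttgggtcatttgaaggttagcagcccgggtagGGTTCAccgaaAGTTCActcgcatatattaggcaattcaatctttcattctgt
CYP26A1: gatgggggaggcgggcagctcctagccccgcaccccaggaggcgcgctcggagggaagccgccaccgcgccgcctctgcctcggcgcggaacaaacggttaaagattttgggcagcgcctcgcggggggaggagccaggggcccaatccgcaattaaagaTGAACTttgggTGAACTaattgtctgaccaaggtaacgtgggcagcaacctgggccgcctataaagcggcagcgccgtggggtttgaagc
A match is a description of the letters and shows no binding in these cells.

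The receptors themselves spread over a wide range of signal. RARB, whose promoter is shown, read -0.83, -1.13 and -0.96 on A, B and C, at the 73.2nd percentile. RARA and RXRA read 1.72 ± 0.22 and 2.11 ± 0.12 (SD, n = 3), at the 90.3rd and the 91.9th percentile. RARG read -0.13 ± 0.22 (SD, n = 3), and RXRG, the RXR of brain and muscle, was the dimmest of the 6 receptor genes at -3.96 ± 0.16 (SD, n = 3). Of the enzymes that make retinoic acid from retinal, ALDH1A3 read -2.08 ± 0.21 and ALDH1A1 read -4.04 ± 0.32 (SD, n = 3), while ALDH1A2 was not well above background on any array. CYP26B1 and CYP26C1, the other retinoic acid hydroxylases, read -4.93 ± 0.26 and -2.76 ± 0.06 (SD, n = 3), so within the CYP26 family the probe of CYP26A1 alone lay in the top 10%.

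The HOX genes, which lay down position along the body axis and lie in 4 clusters in the order of their expression, divided by paralog number. Of 39 HOX genes, 25 were well above background on all 3 arrays (64.1%), 3 on some and 11 on none. Among the 15 genes of paralog groups 1 to 5, 14 were above background on all 3 arrays and 6 lay in the top 10%, with a median at the 86.4th percentile. Among the 12 genes of groups 6 to 9, 7 were, with a median at the 43.9th percentile, and among the 12 genes of groups 10 to 13, 4 were, with a median at the 15.6th. None of the last 2 sets lay in the top 10%. These are counts of probes, each with its own brightness.

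HOXD3 read 3.69, 3.96 and 3.88 on A, B and C, HOXB2 read 3.51, 3.87 and 3.78, HOXD1 read 3.15, 3.55 and 3.63, and HOXA3 read 3.09, 3.15 and 2.92, the 4 brightest. These anterior genes pattern the hindbrain and neck. At the other end HOXA11, HOXA13, HOXB7 and HOXB8 were above background on no array, with means between -9.08 and -6.96. Cluster C held the most silent probes: 2 of its 9 genes were above background on all 3 arrays and 5 on none. The exceptions to the order were HOXA10, HOXB13, HOXC13 and HOXD13, the 4 posterior genes above background on all 3 arrays, and at the anterior end HOXD4, at the 32.8th percentile, and HOXC5, above background on 1 array. HOXA10 and HOXA9 each had 2 probes that disagreed, 1 above background on all 3 arrays and 1 on none. The bright HOXA10 probe read 2.18 on A, 1.08 on B and 0.41 on C, the HOXA9 probe -1.19, -1.92 and -2.64 and the HOXA6 probe -4.49, -4.84 and -5.54. All 3 probes ranged over more than 1 unit with A highest and C lowest, while no HOX gene of groups 1 to 5 did.

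Neural progenitor genes were present beside the pluripotency genes, but not throughout the list. Of 45, 36 were well above background on all 3 arrays (80.0%, against 79.1% of all gene names) and 9 lay in the top 10% (20.0%, against 16.8%), shares close to the background. VIM, the intermediate filament of progenitors and mesenchyme, read 5.36, 5.32 and 5.31 on A, B and C, and SOX3, a SOXB1 factor of the neural plate, read 5.13, 5.13 and 5.04. EN2, a midbrain and hindbrain factor, was equally high in rank, at the 98.0th percentile, but its arrays differed, with 5.17 on A, 4.59 on B and 3.97 on C. PAX6 read 3.48 ± 0.09 (SD, n = 3) and CDH2, N-cadherin, 2.47 ± 0.03 (SD, n = 3). The regional and neurogenic factors PAX5, NEUROD1, OTX1 and EN1 were above background on no array. SOX1, a marker of committed neuroectoderm, was above background on 1 array only. PAX2 ranged from -6.38 on A to -5.18 on B. HES6, a promoter of neurogenesis, read 2.92 ± 0.11 (SD, n = 3) on the brightest of its 4 probes, at the 94.8th percentile. Another HES6 probe read 2.14, 1.44 and 1.04.

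Of 36 genes of mature neurons, 31 were above background on all 3 arrays (86.1%, against 79.1% of all gene names). In the top 10% lay 4 (11.1%, against 16.8%), and both shares were near the background. The bright ones were UCHL1, a ubiquitin hydrolase abundant in neurons, at 5.48 ± 0.06, TUBB3, the neuronal β-tubulin, at 3.38 ± 0.23, DPYSL3 at 2.60 ± 0.06 and ENO2 at 2.16 ± 0.24 (SD, n = 3). TUBB3 read 3.64, 3.22 and 3.28 on the 3 arrays. STMN2, GAD2, which makes GABA, and SLC17A6, a vesicular glutamate transporter, were above background on none. SYN1, of the synaptic vesicle, ranged from -3.83 on A to -4.85 on B. Among 18 glial genes 15 were above background on all 3 arrays and 1, CNP, lay in the top 10%, at 4.07 ± 0.08 (SD, n = 3). GFAP, the astrocyte filament, and SOX10, the factor of oligodendrocytes and neural crest, were above background on no array, and GFAP read -8.17, -9.33 and -9.13. Of 15 neural crest genes 9 were above background on all 3 arrays and 0 lay in the top 10%. The brightest of these was SNAI1, a driver of cell migration, at the 77.1st percentile, and TFAP2B and ETS1 were above background on none.

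Mesoderm, trophoblast and blood lists were mostly dim, with a few bright probes. The endoderm list was less dim, with a median at the 56.0th percentile, against the 68.1st of all gene names. The epithelial list was not dim, with a median at the 73.3rd. Of 28 mesoderm and muscle genes, 16 were above background on all 3 arrays (57.1%), and T (brachyury), EOMES, HAND1 and HAND2 were on none. NKX2-5, a cardiac transcription factor, stood alone in the top 10%, with 6.36 on A, 5.80 on B and 5.30 on C, and its arrays ranged over 1.06. Of 23 endoderm genes 15 were above background on all 3 arrays, and SOX17, GATA4, AFP and ALB were on none. The bright endoderm probes were SPARC at 3.48 ± 0.05 and LAMA1 at 2.02 ± 0.19 (SD, n = 3), which make basement membrane and matrix. Of 18 trophoblast genes 10 were, KRT7 lay in the top 10% at 2.07 ± 0.51 (SD, n = 3), GCM1 ranged over 1.18, and CGA, ELF5, HAND1 and PSG3 were on none. Of 19 epithelial and epidermal genes 13 were above background on all 3 arrays and 5 lay in the top 10% (26.3%, against 16.8% of all gene names). Simple epithelial keratins were bright, KRT18 at 4.90 ± 0.14 and KRT19 at 3.55 ± 0.07 (SD, n = 3), as was the adhesion protein EPCAM at 2.59 ± 0.22 (SD, n = 3). KRT8, the partner of KRT18, read 2.51 ± 0.38 (SD, n = 3) on the brighter of 2 probes, and the other ranged over 1.14. Epidermal KRT5, KRT14, KRT1 and TP63 were above background on no array. Epidermal genes were not all dim, since KRT10 read 2.51 ± 0.10 (SD, n = 3), at the 93.4th percentile. Of 16 blood genes on the array 12 were above background on all 3 arrays, 7 of these below the 50th percentile; CD4, a T cell coreceptor, read 3.16, 2.30 and 2.27, at the 93.6th percentile, while MS4A1, HBB, GATA1 and TAL1 were on none. Neither NKX2-5 nor CD4 came with the rest of its list.

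Biosynthesis was the brightest theme among the lists. All 26 genes of one-carbon and nucleotide synthesis were above background on all 3 arrays and 19 lay in the top 10% (73.1%, against 16.8% of all gene names). PHGDH, the first enzyme of serine synthesis, read 5.26, 4.86 and 4.93 on A, B and C, and TYMS, which makes thymidylate, read 4.39, 4.54 and 4.43. IMPDH2 and PSAT1 followed at 4.42 ± 0.04 and 4.36 ± 0.12 (SD, n = 3). All 28 genes of sterol and fatty acid synthesis were above background on all 3 arrays and 19 lay in the top 10% (67.9%). FDPS, of the isoprenoid branch, read 4.88, 4.72 and 4.77, the desaturase FADS1 4.57 ± 0.06 and FDFT1, the first committed enzyme of sterol synthesis, 4.19 ± 0.15 (SD, n = 3). Cytosolic ribosomal proteins went furthest: 83 of 88 gene names lay in the top 10%.

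Glycolysis split by isoform. Of 33 genes 28 were above background on all 3 arrays and 15 lay in the top 10% (45.5%). LDHB, the lactate dehydrogenase subunit of aerobic tissues, read 8.10, 7.76 and 7.69, GAPDH 7.61, 7.27 and 7.21, TPI1 6.44, 6.10 and 6.07, and PGK1 5.35, 5.38 and 5.32. Isoforms of other tissues were not above background on any array: SLC2A2, the glucose transporter of liver and islets, HK3 of leukocytes, and the sperm isoforms GAPDHS and PGK2. PFKL, the liver-type phosphofructokinase, was the member that varied, with 2.45 on A, 1.21 on B and 1.06 on C. In the tricarboxylic acid cycle 26 of 28 genes were above background on all 3 arrays and 15 lay in the top 10%, led by MDH1 at 5.35 ± 0.10, CS at 5.16 ± 0.08, MDH2 at 4.53 ± 0.11 and PDHA1 at 4.33 ± 0.03 (SD, n = 3). PDHA2, the testis form of PDHA1, and ME1 were on none. Gluconeogenesis and liver metabolism formed the contrast: 10 of 19 genes on the array were above background on all 3 arrays (52.6%) and 0 lay in the top 10%. CYP1B1 was the brightest at 1.32 ± 0.07 (SD, n = 3), and PCK1, FBP2, G6PC and OTC were on none.

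Receptors and inner parts of the signalling pathways were brighter in rank than many of their ligands. In the FGF and receptor tyrosine kinase list 33 of 35 genes were above background on all 3 arrays and 5 in the top 10%, DUSP6, a feedback phosphatase of the pathway, at 3.62 ± 0.13 and the receptors FGFR3, FGFR1 and FGFR2 at 2.79 ± 0.20, 2.73 ± 0.07 and 2.69 ± 0.13 (SD, n = 3). The ligands FGF8 and IGF1 were above background on none, and FGF4, a ligand that embryonal carcinoma cells are known to make, read -5.16 on A and -6.54 on C. In the WNT list 32 of 37 were on all 3 arrays and the bright probes were CTNNB1, β-catenin, at 3.23 ± 0.14, the frizzled receptors FZD7 and FZD2 at 3.23 ± 0.22 and 3.10 ± 0.12, and the coreceptor LRP6 at 2.56 ± 0.12 (SD, n = 3). WNT1, WNT7A, WNT8A and the inhibitor DKK1 were on none, and RSPO3, a secreted enhancer of the pathway, ranged from -4.46 on A to -6.27 on C. One probe of the transcription factor TCF7L2 also ranged over 1.00.

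For NOTCH, 22 of 24 genes were above background on all 3 arrays, with NOTCH2 at 3.36 ± 0.16, NOTCH3 at 3.25 ± 0.11, the DNA-binding partner RBPJ at 2.97 ± 0.04 and the feedback inhibitor NRARP at 1.81 ± 0.06 (SD, n = 3), and DLL4 was on none. For TGF-beta, BMP and Nodal, 35 of 39 were, and BAMBI, a pseudoreceptor that damps the pathway, read 5.12, 5.43 and 5.27, at the 98.6th percentile. ID1, a BMP target, read 2.85 ± 0.11, and BMP7 2.44 ± 0.06 (SD, n = 3), the receptor ACVR2B read 1.71, 2.10 and 2.18, while TGFB3, INHBB, CER1 and BMPR1B were on none. For Hedgehog 11 of 14 were, with the transducer SMO at 2.85 ± 0.08 and the factors GLI3 and GLI1 at 2.62 ± 0.07 and 2.22 ± 0.06 (SD, n = 3). Of the ligands of that pathway, IHH and DHH were above background on no array and SHH on 2. The share of these 5 signalling lists in the top 10% lay between 10.3% and 21.4%, near the 16.8% of all gene names.

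Genes of cholinergic transmission and of esterases, some of which organophosphates inhibit, were also read in the unexposed cells. Of 24 cholinergic and esterase genes, 21 were above background on all 3 arrays (87.5%) and 3 lay in the top 10%: the acyl-protein thioesterases LYPLA2 and LYPLA1 at 3.63 ± 0.09 and 3.21 ± 0.19, and PON2 at 1.86 ± 0.29 (SD, n = 3). APEH, acylpeptide hydrolase, read 1.36, 1.12 and 1.04. PNPLA6, which encodes neuropathy target esterase and is named for its role, read -0.45, -1.03 and -0.74, at the 74.8th percentile. ACHE, acetylcholinesterase, read -2.55, -2.89 and -2.89, at the 60.4th percentile, and BCHE, butyrylcholinesterase, read -3.98, -3.66 and -3.74, at the 53.2nd. PON1 and PON3, of which PON1 hydrolyses paraoxon, and SLC5A7, the choline transporter of cholinergic neurons, were above background on no array. CHAT, which makes acetylcholine, read -2.77 on A against -4.09 on B and -4.29 on C, and CES1, a carboxylesterase, -3.43, -4.39 and -5.64. Of the listed genes on all 3 arrays CES1 had the widest range, and its 2 other probes disagreed, with 1 of them above background on no array.

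Cell division genes were bright: 35 of 36 were above background on all 3 arrays and 19 lay in the top 10% (52.8%). MCM7, part of the replicative helicase, read 6.01, 6.02 and 5.84, the cyclin CCNB2 4.96, 5.01 and 5.09, CDK4 4.28 ± 0.11 (SD, n = 3) and MCM3 4.35, 4.23 and 4.10. CDKN2B, an inhibitor of CDK4, was on none, and CDKN1A (p21), named for its role, read -5.69 ± 0.09 (SD, n = 3), at the 38.4th percentile. Of 33 immediate early and stress genes 30 were on all 3 arrays, led by the chaperone HSP90AA1 at 6.40 ± 0.02, and IER2 at 4.82 ± 0.02 (SD, n = 3). The metallothionein MT2A read 4.51, 4.14 and 3.96 and ASNS, asparagine synthetase, 4.21, 4.17 and 4.23, and EGR2 was on none. Of 28 matrix and adhesion genes 26 were, led by COL18A1 at 6.01 ± 0.05, COL4A2 at 4.45 ± 0.13 and LAMB1, a laminin induced by retinoic acid in teratocarcinoma cells, at 3.52 ± 0.13 (SD, n = 3), and COL3A1 and ITGB3 were on none. All 18 imprinted genes were above background on all 3 arrays. H19, a maternally expressed long non-coding RNA, read 7.96, 7.44 and 7.46, at the 99.9th percentile, and GNAS 5.92 ± 0.11, CDKN1C 3.37 ± 0.10 and SGCE 2.82 ± 0.22 (SD, n = 3). MEG3 had its highest value on A and read -0.67 ± 0.59 (SD, n = 3), and 1 dim probe of PEG3 ranged over 1.12.

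The brightest probes of all belonged to the translation machinery. The 15 gene names with the brightest probes included RPS27, RPS2, RPL13, RPL41, RPS21, EEF1A1, RPLP0, RPS26, RPL37A, RPL7A, RPSA, RPL6, RPS28 and RPL13A, and of the 15 all but the elongation factor EEF1A1 were ribosomal proteins. Their means lay between 7.88 and 8.35. RPS27 read 8.68, 8.23 and 8.14 on A, B and C. Ribosomal proteins made up 62 of the 100 brightest probes but 163 of all 42405. Many ribosomal protein genes have processed pseudogenes, whose share in these signals was not tested. On all 15, array A was the highest.

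The 3 arrays differed in a way that followed the class of RNA. Of the 28573 probes above background on all 3, 1727 (6.04%) ranged over more than 1 unit between the highest and the lowest array, and A was highest for 1620 of them and C lowest for 1461. With quantile normalization A was highest for 895 of 1122. Among replication-dependent histones, whose messages lack a poly(A) tail, 50 of 74 probes did (67.6%), among small nucleolar and small nuclear RNAs 18 of 42 (42.9%), and among long intergenic non-coding RNAs 762 of 4467 (17.1%). Among cytosolic ribosomal proteins 0 of 160 did, and among other gene names 493 of 20095 (2.45%). The listed genes described above had 19 such probes of 758 (2.51%). The median difference of A minus C was 1.30 for the histones, 0.72 for the small RNAs and 0.48 for the intergenic RNAs, against 0.12 for all probes (-0.05 with quantile normalization, 0.23 with another background correction). These 3 medians stayed above 0 with quantile normalization (1.22, 0.49 and 0.19), with another background correction (1.18, 0.64 and 0.51) and in the authors' own values (1.21, 0.36 and 0.10), while that of the ribosomal proteins, 0.32 here, was 0.30 with the other background correction, -0.03 with quantile normalization and -0.02 in the authors' values. Without array A, 175 of 29311 probes (0.597%) differed by more than 1 between B and C, without B 1510 of 28658 did between A and C, and without C 736 of 29161 did between A and B. A range over 2 arrays can only be smaller than over 3.

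Named probes of these classes show the size of the difference. The histone gene HIST2H3A read 4.86 on A, 3.31 on B and 2.11 on C, and HIST4H4 read -2.96, -4.77 and -6.70. Not all histones moved, since HIST1H3E read 3.88, 3.96 and 3.94. RN7SK, the 7SK RNA that restrains transcription elongation, read 4.83, 3.36 and 2.10, RN18S1, a probe for ribosomal RNA, 5.79 on A and 4.58 on B with C lowest, and RMRP, the RNA of RNase MRP, 1.77, 1.04 and 0.29. These 3 and HIST1H3E were picked after their values were seen, and the 3 are, like most histone messages, RNAs without a poly(A) tail. The small nucleolar RNAs SNORA28 and SNORA74A read -1.58, -3.77 and -4.17, and -3.88, -6.54 and -5.93. Of the 15 gene names with the largest SD, RNF222 read 1.69, 0.12 and -1.67 and C3AR1 -1.13, -2.26 and -3.90. On the arrays of exposed cells 56.6% of the same 1727 probes (of 1515 above background there) ranged over more than 1 between the 3 paraoxon arrays and 62.4% (of 1451) between the 3 mipafox arrays, against 8.21% and 12.2% of all probes. In each group the array with the lowest 75th percentile of raw signal had the highest median of the histones: control A (1000 units, median 0.67 above the probe's mean), paraoxon C (818 units, 0.66) and mipafox A (802 units, 0.90). The other control and mipafox arrays followed the same order, but the other paraoxon arrays did not. Paraoxon B (1210 units) had the lowest histone median, -0.78, and paraoxon A (1590 units) had 0.09. The part of signal strength or of labelling in these differences was not tested.

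A second set of probes was high on array B alone. On B 33 probes exceeded both other arrays by more than 1, on C 3 and on A 476. They include 9 of the 15 gene names with the largest SD: BTN3A2, which read -6.35 on A, -0.60 on B and -6.48 on C, and ANO4, ZNF471, LRRC8E, SEC62, ADAM21, KRT79, CASC1 and DNAJB13. All 33 were printed as 1 spot, and 22 of them (66.7%) lay within 2 rows and 1 column of another of the 33, against 29 of the 447 1-spot probes high on A (6.49%). No listed gene was among the 33. Probes printed as 10 spots put these spreads in scale: over 829 such probes the median SD between spots of 1 array was 0.0588 on A, 0.0546 on B and 0.0567 on C, and the median SD between the 3 arrays was 0.137.

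The genes that describe the unexposed cells were last read in the exposed cells. limma on all 9 arrays, with Benjamini-Hochberg adjustment over 28945 probes, called 0 of 764 listed probes for either compound, where a call needed a 2-fold difference and an adjusted p below 0.05. It called 0 probes in all (0%), and the smallest adjusted p of limma was 0.0598 for paraoxon and 0.153 for mipafox. At an unadjusted p under 0.05 with the same fold change, 8 listed probes of 764 passed for paraoxon and 3 for mipafox, of 633 and 240 over all probes. Listed probes differed by more than 1 in 1.05% with paraoxon and 0.393% with mipafox, against 2.76% and 1.13% of all probes. The counts of 0 depended on the mipafox arrays in the fit. With the paraoxon and control arrays alone 277 of 28866 probes were called, 4 of them listed. Without mipafox array A 280 of 29286 probes were called for paraoxon, 5 of them listed, and 82 for mipafox, 1 of them listed. Without mipafox array B 92 of 28949 were called for paraoxon, 2 of them listed. The control and paraoxon arrays lay on different slides, and between these 6 arrays slide and paraoxon cannot be told apart. Mipafox A shared the slide of the controls, so only the mipafox arrays tie the slides together. With slide as a block in the 9-array fit, 1 of 28945 probes was called for paraoxon and 6 for mipafox, none of them listed.

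POU5F1 read 5.31, 5.30 and 5.47 on the paraoxon arrays and 5.93, 5.25 and 4.86 on the mipafox arrays, against 5.43 to 5.53 in the controls. The POU5F1 difference from the controls was -0.13 ± 0.24 (SE) for paraoxon and -0.14 ± 0.24 (SE) for mipafox, with adjusted p = 0.883 and 0.968 by limma. SOX2 read 4.58, 4.51 and 4.76 with paraoxon, a difference of 0.21 ± 0.22 (SE). CYP26A1 differed by -0.02 ± 0.15 (SE) with paraoxon and by -0.00 ± 0.15 (SE) with mipafox, and CRABP2 by -0.06 ± 0.19 (SE) and 0.10 ± 0.19 (SE). Among the esterases ACHE differed by 0.15 ± 0.15 (SE) with paraoxon and 0.23 ± 0.15 (SE) with mipafox, and PNPLA6 by -0.16 ± 0.16 (SE) and 0.11 ± 0.16 (SE). None of these differences passed the test, which does not show that the groups were equal.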

How the data were processed

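RNA of NT2 cells was labelled with Cy3 and hybridised to one-colour Agilent arrays. Per the file headers, Agilent Feature Extraction 10.5.1.1 made the deposited processed signal, a linear intensity after background subtraction, on an hg19 design of 58717 non-control spots. The authors also deposited a table of log2 values for part of the probes, whose correction and scaling are not given in the sources used here beyond the package name and limma. The deposited log2 values served as an alternative.

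The intensity of each spot was taken to log2 after leaving out outlier spots (219 to 241 per control array), spots of a probe were averaged, and each array's 75th percentile (1000, 1347 and 1438 units on A, B and C) was subtracted. A probe was well above background where over 0.5 of its spots carried the flag. Descriptions used the 3 control arrays with no test, with a precision limited by their number. limma 3.58.1 (R 4.3.3) compared the groups over 9 arrays, keeping probes flagged on each array of 1 group or more. The fit was tested on simulated data. Python 3.11.15, numpy 2.4.6, pandas 2.3.3 and matplotlib 3.10.9 were used. Promoters and gene names came from RefSeq tables (GRCh38.p14), which were not mixed with hg19 coordinates.

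The members and lists were chosen with earlier results of these data known. Named genes were the 5 markers, per list up to 4 brightest genes on all 3 arrays and up to 4 on none, the 15 brightest and 15 most variable gene names, and listed genes that ranged over more than 1, and some genes the rule names are not reported here. Other names, such as NANOG, RARA or ACHE, were added for their role after their values were seen. A gene was represented by its brightest probe, and 33 of 172 listed genes with several probes had 1 probe on all 3 arrays and 1 on none. The replicate letters were not treated as pairs in the main fit. Arrays of the same letter correlated in their deviations by between -0.68 and 0.61, those of letter A by 0.20 to 0.26. These values cannot show whether the letters pair samples, since arrays of a group also differed by class of RNA. Alternatives were the detection flag, outlier spots, spot averaging, background correction, normalization, the authors' values, filters, blocks, and each array left out.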

Additional observations from a re-analysis of the deposited data

How the results depend on the processing

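Of 88 values recomputed under alternatives, 64 kept their size or call. The count of probes well above background on all 3 control arrays moved by less than 1.5 times under every alternative run. With the more lenient flag for a positive and significant signal, 3882 probes in place of 10870 were above background on no control array. The count of probes with a range over 1 was 1122 with quantile normalization, 809 with normexp background correction, 618 in the authors' values, 6713 with no filter on dim probes, and between 175 (without A) and 1510 (without B) when each array was left out, with 736 without C. For the other settings the cause was not tested. The 5 markers stayed between the 91.3rd and the 98.8th percentile under the alternatives run. For the listed probes, control and paraoxon alone gave 4 calls (277 of all probes), the unadjusted p 8 (633) and, for mipafox, 3 (240), and leaving out each array 0 to 5 calls for paraoxon (0 to 280 of all probes) and 0 to 1 for mipafox (0 to 82). The 3 probes for mipafox were of AXIN2, POFUT1 and TCF7L2, named after their values were seen. The POFUT1 probe was not well above background on all 3 control arrays. With the replicate block, 0 listed probes were called for either compound and 0 of all probes, and with slide as a block 0 listed probes, with 1 and 6 of all probes for paraoxon and mipafox. Each comparison rests on 2 or 3 arrays per group, and dim probes near background have no order.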

Other observations

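Long intergenic non-coding RNAs were widely detected in the unexposed cells but mostly dim. Of 8263 such probes 4467 (54.1%) were well above background on all 3 arrays, against 67.4% of all probes, these 4467 had a median at the 50.0th percentile, and 182 of the 4241 probes of the top 10% were of this class. The brightest, with a probe at chr18:5232876-5232935 (hg19), read 7.90, 7.32 and 7.28 on A, B and C. One on chromosome 2, with a probe at chr2:179866870-179866929, read 7.21, 7.29 and 7.16 and had an SD of 0.07 between arrays, against a median of 0.30 in its class. The files give these RNAs no gene name.

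Small nucleolar and small nuclear RNAs were detected in part. Of 64 gene names of small nucleolar and small nuclear RNAs 40 were above background on all 3 arrays and 2 lay in the top 10%. SNORD3B-1, the U3 RNA of ribosome assembly, read 6.90, 6.26 and 5.84 on its brighter probe and 2.81, 1.44 and 0.63 on the other, both highest on A. SNORD116-19, of the imprinted Prader-Willi region, read 0.92, 0.45 and -0.16. Among probes above background on all 3 arrays, the share with a range over 1 was 9.94% below the 50th percentile and 4.34% in the top 10%.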
